A study of Mus musculus with 6 samples.

Results

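H3K9me3 in endothelial progenitor cells (EPCs) of ovariectomized female mice (OVX-EPC) was compared with that in EPCs of intact female mice (F-EPC). The comparison asks what the loss of the ovaries, and with them of most circulating sex hormones, does to this mark. The deposited table of these groups held 58479 regions, of which 26997 (46.2%) entered the comparison. These covered regions are those on chromosome 1, chromosomes 10 to 15 and the first part of chromosome 16, up to chr16:30556738-30557137, because F-EPC replicate 1 had no read in any later region. The test took in the 7897 regions whose value reached 10 in 2 or more of the 4 libraries. The values are the authors' read counts per region divided by 1 size factor per library.

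The cells were Sca-1+/CD31+ cells sorted with magnetic beads from the bone marrow of C57BL/6J mice of 8 weeks and grown in EGM-2 medium. OVX mice had lost their ovaries at about 35 days of age. The F-EPC mice kept theirs, and no sham ovariectomy is described in the sources used here. Both groups were cultured in the same medium without added estrogen, so the comparison is of cells that differed in hormone status in the animal and not in the dish. Each group had 2 libraries, and the vials were set aside in duplicate, so the 2 libraries of a group may be technical replicates and p-values measure only the spread between these libraries. Cells of male mice (M-EPC, 2 libraries) are given as read counts beside a few regions and as shares of reads for the zinc finger regions. They enter no test. These libraries held 200289 and 235291 reads in the covered regions, and their read counts are not scaled for depth.

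H3K9me3 is histone H3 carrying 3 methyl groups on lysine 9. It is written by the SUV39H and SETDB1 families of enzymes, is bound by HP1 proteins, and keeps repeats, silent gene families and genes of other lineages compacted. KRAB zinc finger proteins bind DNA in a sequence-specific way and bring TRIM28 and SETDB1 to it, and the clusters of genes that encode these proteins are themselves classical carriers of the mark. Estrogen acts on chromatin mainly through the receptors encoded by Esr1 and Esr2, which bind a palindromic estrogen response element. CUT&Tag reads out the mark with a transposase that is brought to the mark by an antibody and inserts sequencing adapters nearby.

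The sequences on which the results turn are printed here from the GRCm38 reference, the assembly also called mm10, and not from the reads. The first set is the centre of the only region that passed the test across all regions, on the plus strand at chr11:83000773-83001072. Capitals mark bases masked as repeats, which make up 150 of the 300 shown, since short reads in repeats are harder to place.

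Slfn9 region: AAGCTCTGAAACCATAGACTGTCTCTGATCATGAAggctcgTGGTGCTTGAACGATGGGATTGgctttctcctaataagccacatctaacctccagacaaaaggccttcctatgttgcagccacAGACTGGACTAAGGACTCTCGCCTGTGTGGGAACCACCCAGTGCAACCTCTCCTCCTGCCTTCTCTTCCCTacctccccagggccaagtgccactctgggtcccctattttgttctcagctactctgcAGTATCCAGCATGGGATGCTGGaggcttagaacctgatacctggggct

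The next sequence comes from a region in an exon of Zkscan3, at chr13:21388190-21388489 on the minus strand, the strand of the gene. It is shown because regions near zinc finger genes are described at length below. Capitals mark 3 matches to ACNGGNGANAANCC, the reverse translation of the short linker between neighbouring zinc fingers of the C2H2 kind. These linkers recur along such genes and between them.

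Zkscan3 region: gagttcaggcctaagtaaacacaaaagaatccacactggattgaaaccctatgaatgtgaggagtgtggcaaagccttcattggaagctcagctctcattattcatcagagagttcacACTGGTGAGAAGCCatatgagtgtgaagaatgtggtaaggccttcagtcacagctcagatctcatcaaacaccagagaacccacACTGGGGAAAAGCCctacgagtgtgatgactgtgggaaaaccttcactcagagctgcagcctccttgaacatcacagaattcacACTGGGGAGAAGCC

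The last set holds the palindrome GGTCANNNTGACC of the estrogen response element, in capitals, with 8 bases on either side. It was found in 24 of the 26997 covered regions (0.0889%), searched on both strands, and in 5 of the regions tested. The 5 lie at chr15:87448001-87448029, chr12:72490280-72490308, chr10:4351458-4351486, chr10:60629672-60629700 and chr13:37194257-37194285, in the order printed and on the plus strand.

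Tafa5 region: taacatatGGTCAGCTTGACCttctcttc

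Lrrc9 region: ggatatgtGGTCAGTCTGACCttccagaa

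Zbtb2 region: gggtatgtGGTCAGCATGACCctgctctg

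Cdh23 region: agggtaagGGTCAGGGTGACCtatgggac

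F13a1 region: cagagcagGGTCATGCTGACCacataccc

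The stretches at Zbtb2 and F13a1 were the same 29 bases on opposite strands, and in both the palindrome lay in a masked repeat.

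Reads in covered regions numbered 288353 and 252356 in F-EPC against 209015 and 223313 in OVX-EPC, so both F-EPC libraries were the deeper ones. The median region held 6 to 8 reads per library, and 1.31% to 3.31% of covered regions were empty in a library. Of the 26997 regions 99.2% were 400 bp long, and they were assigned by the authors to 8317 genes. At this depth the standard error (SE) of a region's log2 fold change had a median of 0.39. The 95% interval had a median half-width of 0.79. It lay wholly within 2-fold either way of no change for 37.7% of the regions. Summed over all regions of a gene this share was 68.1%, and summed over windows of 1 Mb it was 98.4%. Statements on single regions below are worded accordingly.

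Ovariectomy was accompanied by a called change of H3K9me3 at 1 region, which lay in the schlafen gene cluster and was lower in OVX-EPC. Fold changes are OVX-EPC over F-EPC on the scale of log2(value + 1), from limma fitted to the 4 libraries, and a region was called at a Benjamini-Hochberg adjusted p under 0.05. Of the 7897 regions tested 1 was called (0.0127%). At an unadjusted p under 0.05 there were 276 higher regions (3.49%) and 215 lower ones (2.72%). The values of the groups did not overlap at 1548 regions (19.6%) with OVX-EPC higher and at 1246 (15.8%) with OVX-EPC lower. The median log2 fold change of all regions was 0.03, and 90% of them lay between -0.76 and 0.78. At the level of genes, with the values of all covered regions of a gene summed, 1 of 4248 genes was called (0.0235%), while 181 (4.26%) were higher and 121 (2.85%) lower at an unadjusted p under 0.05. Of 924 windows of 1 Mb none was called (0%), with a smallest adjusted p of 0.293 in limma, and 90 windows (9.74%) had an unadjusted p under 0.05. For the windows edgeR called 0 as well, with 97 at an unadjusted p under 0.05, and DESeq2 called 0, with 15. In bulk chromatin, fewer cells carrying the mark at a region and less mark per cell cannot be told apart.

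**Figure D1:**
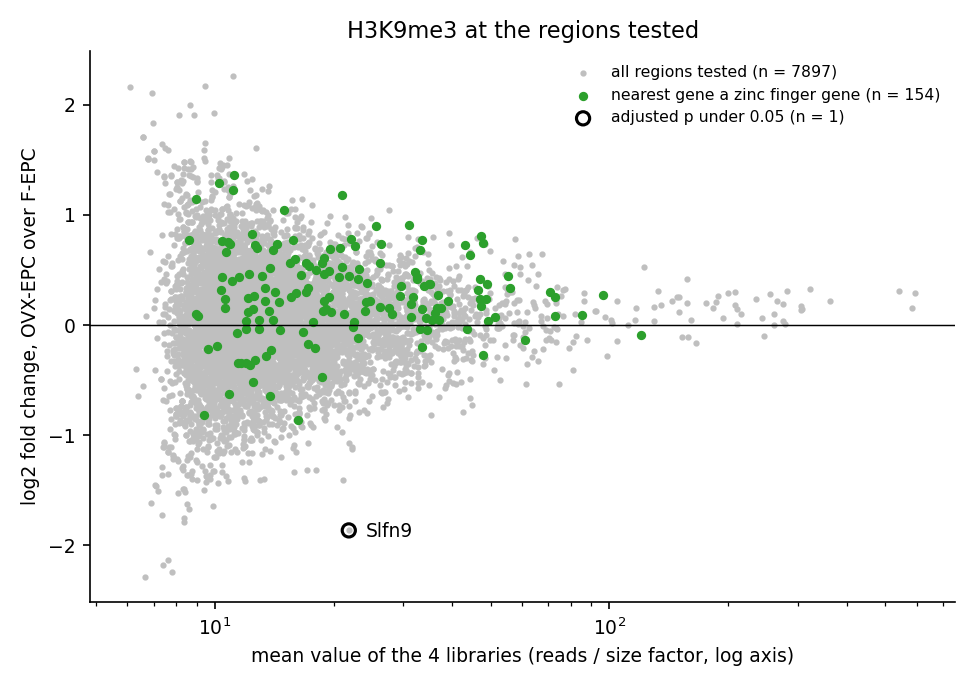
Log2 fold change, OVX-EPC over F-EPC, against the mean value of the 4 libraries (reads divided by the size factor, log axis) for the 7897 regions tested. Green points are the 154 regions whose nearest gene is a zinc finger gene, of which 123 lie above 0, and the ring marks the called region at Slfn9, at -1.86.

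The called region lay at chr11:83000723-83001122. The authors assigned it to Slfn9 (ENSMUSG00000069793) in the class downstream, and in the GENCODE M21 annotation it overlapped no gene. It stood 1035 bases past the end of Slfn8 and 8892 bases before the start of Slfn9, both of which are read on the minus strand. Schlafen genes encode a family of proteins tied to the growth and quiescence of blood cells, several of them induced by interferon. The values were 33.3 and 36.4 in F-EPC against 9.09 and 8.61 in OVX-EPC. The groups were far apart and the replicates of each nearly equal. These values stand for 41 and 39 reads in F-EPC against 8 and 8 reads in OVX-EPC, and the M-EPC libraries held 32 and 36 reads there. The log2 fold change was -1.86 ± 0.33 (SE, n = 2 per group, 95% interval -2.54 to -1.19), with an adjusted p of 0.00962 in limma. The call was lost without F-EPC replicate 1 (adjusted p = 0.191) or replicate 2 (0.946), among the 679 regions with a value of at least 30 in at least 2 libraries (0.149) and in DESeq2 (1.00), while edgeR kept it (0.00117).

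The rest of the schlafen cluster was uneven. Within 200 kb there were 21 other covered regions, of which 9 were tested and 5 of these lay lower in OVX-EPC. Their summed values were 240.7 and 226.8 in F-EPC against 184.1 and 229.3 in OVX-EPC, which overlap. The nearest neighbour, also assigned to Slfn9 and 1564 bases away, had values of 17.9 and 19.6 in F-EPC against 10.2 and 14.0 in OVX-EPC, lower in both OVX-EPC libraries and not called (log2 fold change -0.60). A region just past the end of Gm11425, a predicted gene, was the strongest of the cluster, and it started 25365 bases from the start of the called region. Its values were 53.7 and 55.1 in F-EPC against 30.7 and 31.2 in OVX-EPC, again without overlap, with a log2 fold change of -0.79 ± 0.25 and an adjusted p of 0.768. M-EPC held 32 and 27 reads at this region, compared with 66 and 59 in F-EPC against 27 and 29 in OVX-EPC. By contrast, a promoter region of Unc45b, a myosin chaperone gene beside the cluster, had values of 16.3 and 22.4 in F-EPC against 29.5 and 28.0 in OVX-EPC. The promoter region of Slfn8 had values of 10.6 and 7.47 in F-EPC against 2.27 and 14.0 in OVX-EPC, so its OVX-EPC replicates differed more than the groups.

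**Figure D2:**
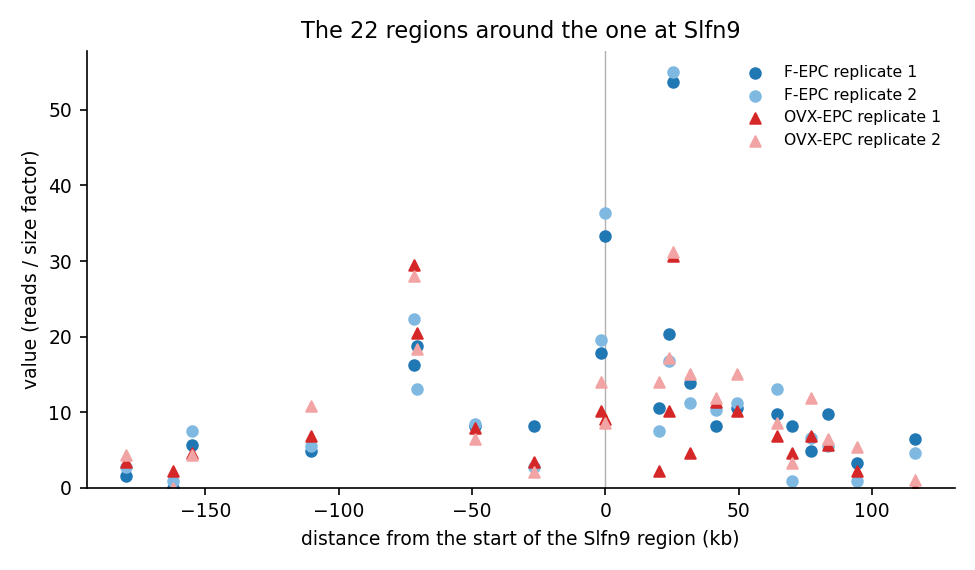
Values (reads divided by the size factor) of the 22 covered regions within 200 kb of the region called at Slfn9, by distance from its start in kb, with 1 symbol per library. At 0 the F-EPC circles sit at 33.3 and 36.4 and the OVX-EPC triangles at 9.09 and 8.61, and at 25 kb the Gm11425 region shows the same order.

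The list of schlafen genes held 12 covered regions, 5 of them tested, of which 1 was called. Their median log2 fold change was -0.50, compared with 0.03 for all regions, and ran from -0.81 to 0.34 on leaving out each library in turn, the highest of these being without OVX-EPC replicate 1. The sum over both Slfn9 regions was 51.2 and 56.0 in F-EPC against 19.3 and 22.6 in OVX-EPC, which gave a log2 fold change of -1.32 ± 0.27 (95% interval -1.84 to -0.79) and the only gene called (adjusted p = 0.00403 in limma). This call too was lost without F-EPC replicate 1 (adjusted p = 0.143) or replicate 2 (0.997) and in DESeq2 (0.999).

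Regions near zinc finger genes were mostly higher in OVX-EPC, with a small median difference. The list was drawn by gene name (Zfp, Zkscan, Zscan, Zbtb and 2 more), and most of its members encode C2H2 zinc finger proteins. Of 258 covered regions 154 were tested. Of these 123 (79.9%) had a log2 fold change above 0, compared with 53.0% of all regions tested. At an unadjusted p under 0.05 there were 18 higher (11.7%, against 3.49% of all regions) and 1 lower (0.649%, against 2.72%), and none was called in limma, where the smallest adjusted p of these 19 was 0.768. The groups did not overlap at 65 regions (42.2%, against 19.6% of all regions) with OVX-EPC higher and at 12 (7.79%, against 15.8%) with OVX-EPC lower. The median log2 fold change was 0.26, compared with 0.03 over all regions. It stayed above 0 on leaving out each library in turn (0.20 to 0.39, against -0.04 to 0.11 for all regions), with TMM factors (0.27) and with scaling to the reads in covered regions (0.23). Between replicates the medians over the same regions, replicate 2 over replicate 1, were 0.03 in F-EPC and 0.16 in OVX-EPC. The list was chosen with earlier results of these data known and has no test of its own.

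**Figure D3:**
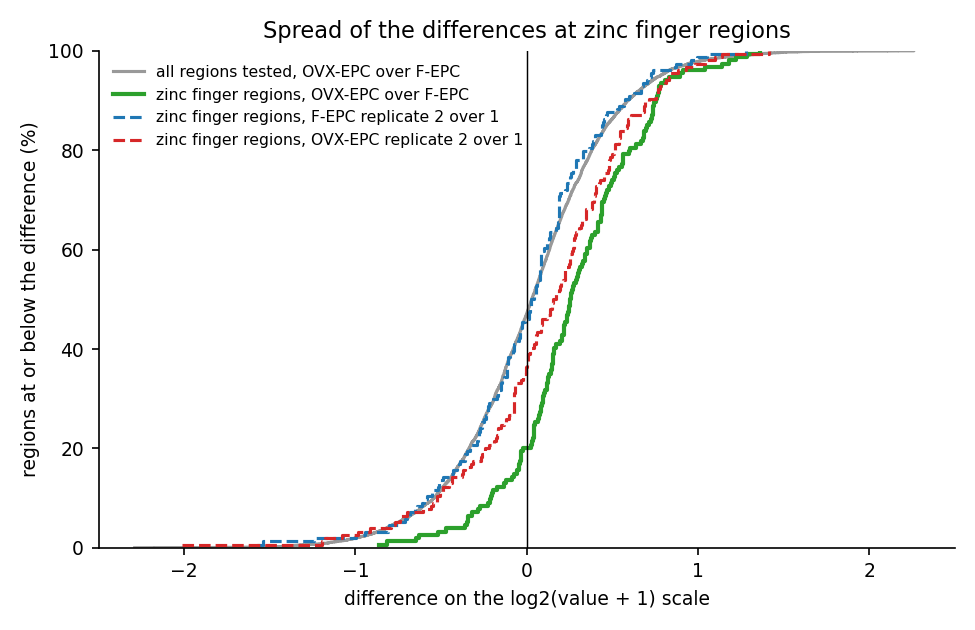
Cumulative percentage of regions by their difference on the log2(value + 1) scale. The green curve (154 zinc finger regions, OVX-EPC over F-EPC, median 0.26) lies to the right of the grey curve of all 7897 regions (median 0.03) and of both dashed curves, which give replicate 2 over replicate 1 for the zinc finger regions in F-EPC (median 0.03) and OVX-EPC (median 0.16).

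As a share of the reads in covered regions, the 258 zinc finger regions took 1.75% (Wilson 95% interval 1.70% to 1.80%) and 1.71% (1.66% to 1.76%) in F-EPC. They took 1.93% (1.87% to 1.99%) and 2.14% (2.08% to 2.20%) in OVX-EPC, so that both OVX-EPC libraries lay above both F-EPC libraries. In M-EPC the shares were 2.47% (2.40% to 2.54%) and 2.26% (2.20% to 2.32%), above both other groups. These intervals cover counting error only. Sums over all regions near olfactory receptor genes, another large clustered family, were 0.715% and 0.637% in F-EPC against 0.643% and 0.719% in OVX-EPC, which overlap. Separated shares were common among the lists. Both OVX-EPC libraries also lay above both F-EPC libraries for prolactin family, interferon-induced (0.263% and 0.264% in F-EPC, 0.268% and 0.280% in OVX-EPC), imprinted and H3K9 methylation genes. They lay below for schlafen, protocadherin, serpin, predicted, chemokine and interleukin, developmental transcription factor and estrogen pathway genes.

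The zinc finger regions lay mainly on chromosome 13, with 78 of the 154 tested. There 68 of 78 were above 0, with a median log2 fold change of 0.32 (0.29 to 0.40 on leaving out each library in turn). At an unadjusted p under 0.05, 14 of these 78 were higher and none lower. Of all 1120 tested regions of chromosome 13, 49 were higher at that threshold and 30 lower, with a median of 0.03. On chromosome 12 all 14 tested were above 0 (median 0.22, range 0.10 to 0.39 on leaving out libraries), and on chromosome 11 it was 12 of 17 (0.25, range 0.10 to 0.43). On chromosome 10 it was 18 of 26, with a median of 0.25 that was 0.01 without OVX-EPC replicate 2. On chromosome 15 it was 4 of 10, with a median of -0.10 that was 0.05 without F-EPC replicate 2. By class, 21 of 22 regions in introns were above 0 (median 0.38, range 0.20 to 0.58), 22 of 28 in exons (0.30, range 0.17 to 0.33), 32 of 39 in promoters within 1 kb (0.16, range 0.16 to 0.35) and 30 of 44 in distal intergenic sequence (0.21, range 0.04, without OVX-EPC replicate 2, to 0.32). Among the fifth of all tested regions with the highest signal, 65 of 74 zinc finger regions were above 0 with a median of 0.26, compared with 0.06 for all 1580 regions that strong.

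The largest cluster, chr13:66638020-67817998, held 73 covered regions of 21 genes, among them Zfp729a, Zfp729b, Zfp748, Zfp759 and Zfp273. Its summed value was 1069 and 1005 in F-EPC against 1287 and 1376 in OVX-EPC, without overlap, and 47 of its 54 tested regions lay above 0. The log2 ratio of the group means of these sums was 0.36. A smaller cluster on the same chromosome, chr13:62090598-62520030 with Zfp808, Zfp934 and Zfp935, had sums of 177.3 and 143.7 in F-EPC against 196.6 and 217.5 in OVX-EPC, and all 6 of its tested regions lay above 0. The 8 regions of Zfp125 on chromosome 12, all tested and all above 0, summed to 330.2 and 304.3 in F-EPC against 352.2 and 413.5 in OVX-EPC. At chr10:81137248-82241573, which holds Zfp781, Zfp873 and Zfp938, the sums were 703.4 and 699.1 in F-EPC against 748.8 and 917.4 in OVX-EPC, with the OVX-EPC replicates further apart than the nearer libraries of the groups. The regions of Zfp72 and Zfp825 at chr13:74372325-74554274 overlapped, with 299.3 and 290.3 in F-EPC against 270.4 and 352.1 in OVX-EPC. The 8 regions of Zfp706 on chromosome 15 summed to 92.7 and 100.8 in F-EPC against 87.5 and 66.8 in OVX-EPC, and this gene held the only zinc finger region that was lower at an unadjusted p under 0.05 (log2 fold change -0.86 ± 0.37).

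The region 44520 bases before Zfp873, with 16.3 and 9.33 in F-EPC against 29.5 and 29.1 in OVX-EPC, had the smallest p of the list (log2 fold change 1.18 ± 0.33, adjusted p = 0.768 in limma). An intron of Zfp729a had 21.1 and 21.5 in F-EPC against 43.2 and 38.8 in OVX-EPC, with replicates nearly equal in F-EPC and a log2 fold change of 0.91 ± 0.28. An exon of Zfp369 had 35.8 and 31.7 in F-EPC against 49.99 and 71.1 in OVX-EPC (0.80 ± 0.25). In these 3 regions both OVX-EPC libraries were above both F-EPC libraries, an order favoured by their choice by smallest p. The Zkscan3 exon whose sequence is printed above had 22.0 and 28.9 in F-EPC against 42.0 and 39.8 in OVX-EPC (0.68 ± 0.28).

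Summed by gene, 54 zinc finger genes were tested and 42 lay above 0, compared with 2155 of all 4248 genes tested. Of the 54 zinc finger genes 13 (24.1%, against 4.26% of all genes) were higher at an unadjusted p under 0.05, 0 were lower and none was called. Zfp759 had the smallest p, with sums of 83.8 and 77.5 in F-EPC against 117.0 and 129.2 in OVX-EPC and a log2 fold change of 0.60 ± 0.18 (adjusted p = 0.220 in limma). Zfp273 followed with 40.7 and 28.0 in F-EPC against 61.4 and 57.1 in OVX-EPC (0.79 ± 0.24, adjusted p = 0.237), and Zfp935 with 130.9 and 107.3 in F-EPC against 157.9 and 173.4 in OVX-EPC (0.48 ± 0.16, adjusted p = 0.274). Zfp729b had 110.6 and 89.6 in F-EPC against 132.9 and 147.5 in OVX-EPC (0.49 ± 0.16).

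Genes of this family resemble each other in sequence, and reads of 25 bases can be shared between copies, so the split of the signal among neighbouring zinc finger genes is uncertain. The linker match ACNGGNGANAANCC, searched on both strands, was present in 30 of the 154 tested zinc finger regions (19.5%) and in 0.387% of the other tested regions. The 30 had a median log2 fold change of 0.23 and the 124 without a match one of 0.26. In a further 30 regions outside the list that held the match, among them predicted genes, the median was 0.20 and 23 lay above 0. Masked repeats made up a median of 16.6% of the bases of the zinc finger regions and 17.0% of all tested regions, and GC content had medians of 48.5% and 50%.

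The remaining regions that the rule names are the 12 with the smallest p in each direction, and apart from Slfn9 none of the 24 was called (adjusted p of at least 0.417 in limma). Among the lower ones, an intron of Vps8, a subunit of an endosomal tethering complex, had values of 27.6 and 34.5 in F-EPC against 12.5 and 9.69 in OVX-EPC (log2 fold change -1.41 ± 0.33). A region 35879 bases before Pbk, a mitotic kinase gene, had 22.8 and 27.1 in F-EPC against 9.09 and 9.69 in OVX-EPC (-1.31 ± 0.35). In both, the groups were apart by more than the replicates, which the choice of the smallest p favours. A region 11904 bases before Ifngr1, the ligand-binding chain of the interferon gamma receptor, had 17.9 and 34.5 in F-EPC against 6.82 and 12.9 in OVX-EPC, with wide spread in both groups (-1.31 ± 0.37). The M-EPC libraries held 9 and 12 reads there, compared with 22 and 37 in F-EPC against 6 and 12 in OVX-EPC. A distal intergenic region 59792 bases from the start of Ywhaz, which encodes a 14-3-3 adaptor protein, had 17.9 and 27.1 in F-EPC against 4.54 and 14.0 in OVX-EPC (-1.34 ± 0.40). The other lower ones were at Ccdc117, Rdh19, Stc2, Gm11425 and the predicted genes Gm22354, Gm26139 and Gm29013, with log2 fold changes from -1.41 to -0.79.

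Among the higher ones, the promoter of Pias4, a SUMO ligase that represses transcription factors, had 8.13 and 3.73 in F-EPC against 23.9 and 15.1 in OVX-EPC (log2 fold change 1.60 ± 0.45). The promoter of Kif3a, a motor protein of cilia, had 19.5 and 15.9 in F-EPC against 34.1 and 40.9 in OVX-EPC (1.04 ± 0.30). Both F-EPC libraries lay below both OVX-EPC libraries at each, which the choice of the smallest p favours. An intron of Ifi213, an interferon-induced gene of the AIM2 family, had 17.1 and 15.9 in F-EPC against 33.0 and 33.4 in OVX-EPC (0.97 ± 0.30). Its replicates were close in both groups, which that choice favours too. An intron of Dcaf5, a receptor subunit of a ubiquitin ligase, had 4.88 and 11.2 in F-EPC against 19.3 and 19.4 in OVX-EPC (1.26 ± 0.40). A region at the predicted gene Gm3646 had the steepest fold, 2.26 ± 0.64, from values of 4.88 and 1.87 in F-EPC against 21.6 and 16.2 in OVX-EPC, and so from as few as 2 reads. The others were at D830044D21Rik, Mir692-3, Gm16327, Gm21963 and the 3 zinc finger genes given above, with log2 fold changes from 0.78 to 1.18.

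**Figure D4:**
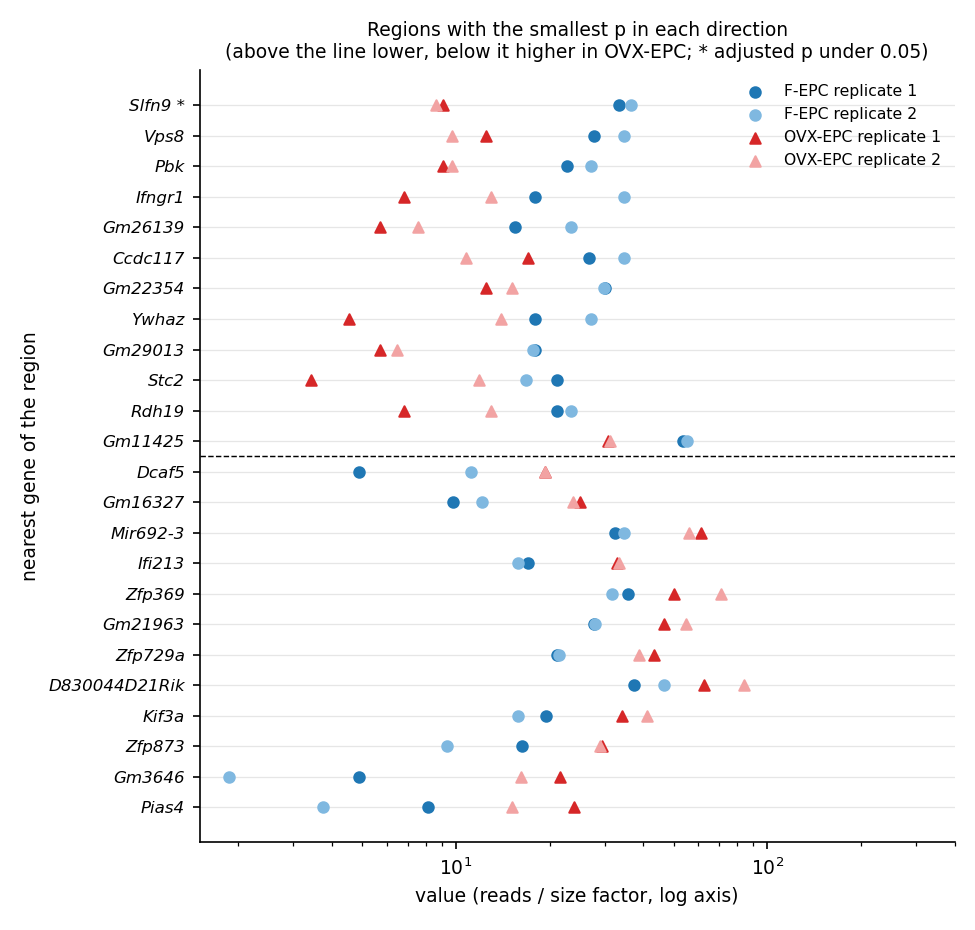
Values (reads divided by the size factor, log axis) in each library of the 24 regions with the smallest p in each direction, by nearest gene. Above the dashed line the F-EPC circles lie right of the OVX-EPC triangles in all 12 regions, below it left of them in all 12, an order that follows from how the regions were chosen, and the asterisk marks Slfn9, the only one called.

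The strongest regions of the comparison were higher in OVX-EPC by little. The 8 with the highest mean value, at Gm21738, Gm11668, Sfi1, Fau-ps2 and Aida, had log2 fold changes of 0.14 to 0.33 and none was called. Both Gm21738 regions (unadjusted p = 0.0105 and 0.0109 in limma) and an exon of Sfi1 (0.0184) had an unadjusted p under 0.05. In the fifth of all tested regions with the highest signal 5.70% were higher at that threshold. At Gm11668 the values were 522.9 and 582.5 in F-EPC against 622.6 and 604.0 in OVX-EPC (0.15 ± 0.11). At Gm21738 they were 535.9 and 533.9 in F-EPC against 670.4 and 642.8 in OVX-EPC (0.29 ± 0.11), and the groups did not overlap. Sfi1, which encodes a centrosome protein and had 19 covered regions, summed to 3937 and 3655 in F-EPC against 4808 and 4078 in OVX-EPC, which gave a log2 fold change of 0.22 ± 0.06 (adjusted p = 0.158 in limma). Near-identical copies of a sequence can share reads, so these levels are uncertain.

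Regions near genes of the estrogen pathway were split evenly around 0. The list held 73 covered and 22 tested regions, of which 11 lay above 0 and 11 below, with a median log2 fold change of 0.02 and none called. At an unadjusted p under 0.05 there were 1 higher (4.55%, against 3.49% of all regions) and 3 lower (13.6%, against 2.72%). Esr1, estrogen receptor alpha, had 13 covered and 3 tested regions, all 3 in the 5′ intergenic sequence. The region 13037 bases before its start had 12.2 and 23.3 in F-EPC against 6.82 and 11.8 in OVX-EPC (log2 fold change -0.84 ± 0.40, adjusted p = 0.783), the next had 35.8 and 41.1 in F-EPC against 27.3 and 36.6 in OVX-EPC (-0.27 ± 0.27), and the nearest had 17.1 and 17.7 in F-EPC against 20.5 and 19.4 in OVX-EPC (0.18 ± 0.33). The groups overlapped only in the second of these. Summed over all 13, Esr1 had 102.5 and 114.8 in F-EPC against 99.99 and 87.2 in OVX-EPC. Esr2, estrogen receptor beta, had 1 covered region with 1 to 6 reads per library, below the minimum for a test.

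Targets of the receptor went both ways. Igfbp4, an insulin-like growth factor binding protein, had a region with 8.95 and 6.53 in F-EPC against 20.5 and 15.1 in OVX-EPC (log2 fold change 1.10 ± 0.40). Stc2, a secreted glycoprotein, had one with 21.1 and 16.8 in F-EPC against 3.41 and 11.8 in OVX-EPC (-1.40 ± 0.44). Cited2, a transcriptional coregulator, had one with 53.7 and 45.7 in F-EPC against 33.0 and 35.5 in OVX-EPC (-0.52 ± 0.25). These regions lay in distal intergenic sequence, for Igfbp4 15089 bases from the gene start and for Stc2 36948 bases before it. None of these was called in limma (adjusted p of 0.768, 0.768 and 0.790). At the 5 tested regions that hold the palindrome printed above, the log2 fold change was 0.92 ± 0.42 at Tafa5, 0.66 ± 0.38 at Lrrc9, 0.75 ± 0.43 at Zbtb2, -0.49 ± 0.32 at Cdh23 and 0.46 ± 0.35 at F13a1. Their SE was close to the median over all regions, and none was called in limma (smallest adjusted p = 0.769).

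Of the genes that mark the sorted cells, Ly6a (Sca-1) had 0 covered regions, and Pecam1 (CD31) had 4, of which 1 was tested, with values of 11.4 and 9.33 in F-EPC against 7.95 and 10.8 in OVX-EPC (log2 fold change -0.14 ± 0.47). H3K9me3 does not measure expression, so these regions say nothing of how pure the cultures were. The lists of endothelial, leukocyte and stromal genes had 8, 15 and 1 tested regions with medians of -0.08, -0.11 and -0.08, and none was called. Ccl3, a chemokine gene, had 1 covered region with values of 9.76 and 9.33 in F-EPC against 13.6 and 7.54 in OVX-EPC, below the minimum for a test. Angpt1, a vessel-stabilizing growth factor, had 4 covered regions that summed to 10.6 and 4.67 in F-EPC against 3.41 and 3.23 in OVX-EPC, with 3 to 13 reads per library, and none was tested.

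Among the other lists, developmental transcription factors lay slightly lower, with 26 of 63 tested regions (41.3%, against 53.0% of all regions) above 0 and a median log2 fold change of -0.11 (-0.23 to -0.06 on leaving out each library in turn). At an unadjusted p under 0.05 there were 0 higher (against 3.49% of all regions) and 3 lower (4.76%, against 2.72%), of which 2 were neighbours in an intron of Sox30, a gene of male germ cells. The first had 20.3 and 19.6 in F-EPC against 10.2 and 8.61 in OVX-EPC, and summed over both regions Sox30 had 35.8 and 32.7 in F-EPC against 18.2 and 12.9 in OVX-EPC (-1.11 ± 0.32, adjusted p = 0.220 in limma). The third was a distal intergenic region assigned to Irx4, with 17.1 and 18.7 in F-EPC against 10.2 and 6.46 in OVX-EPC (-1.04 ± 0.39). A neighbouring Irx4 region, 139111 bases before the gene start, went the other way, with 4.88 and 8.40 in F-EPC against 11.4 and 12.9 in OVX-EPC (0.82 ± 0.53). Genes of the H3K9 methylation machinery had 11 tested regions, 7 of them above 0, with a median of 0.18 that ran from -0.01, without F-EPC replicate 1, to 0.31 on leaving out each library. A region 10439 bases before Tasor2, a paralog of a HUSH complex subunit, had 7.32 and 3.73 in F-EPC against 17.0 and 12.9 in OVX-EPC (1.34 ± 0.53).

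Chemokine and interleukin genes had 30 tested regions, split evenly around 0, with 2 higher (6.67%, against 3.49% of all regions) and 2 lower (6.67%, against 2.72%) at an unadjusted p under 0.05. The higher ones were at Ccl28 (26.8 and 32.7 in F-EPC, 48.9 and 50.6 in OVX-EPC) and Il1rap, the lower ones at Il7r (24.4 and 20.5 in F-EPC, 10.2 and 16.2 in OVX-EPC) and Cxcr4 (13.0 and 16.8 in F-EPC, 5.68 and 9.69 in OVX-EPC). The regions at Ccl28 and Cxcr4 were distal intergenic. Interferon-induced genes had 19 tested regions with a median of 0.06. Regions near ribosomal protein genes and their pseudogenes (86 tested, median 0.12), protocadherins (23, 0.11), serpins (14, 0.10), olfactory receptors (60, 0.06), prolactin family genes (22, -0.02), vomeronasal receptors (26, -0.07), imprinted genes (16, -0.07) and germline genes (9, -0.13) had none called. The medians of all these lists except olfactory receptors changed sign on leaving out at least 1 library. The 3305 tested regions of predicted genes had a median of -0.01.

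**Figure D5:**
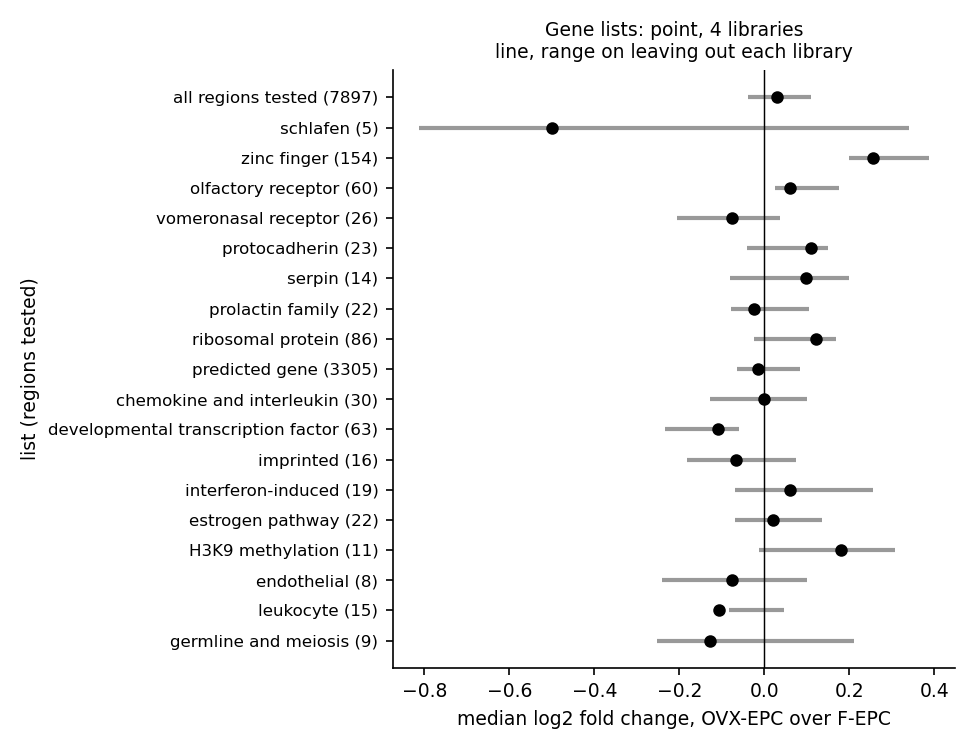
Median log2 fold change, OVX-EPC over F-EPC, of the tested regions of each gene list (points) and the range of that median on leaving out each of the 4 libraries in turn (lines), with the number of regions tested in parentheses. Lists with fewer than 5 tested regions are left out, the zinc finger line runs from 0.20 to 0.39, and the schlafen line spans 0.

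Summed by gene, the genes with the smallest p after Slfn9 were Gm3617, with 26.0 and 15.9 in F-EPC against 46.6 and 45.2 in OVX-EPC (log2 fold change 1.14 ± 0.28, adjusted p = 0.104 in limma), and Gm12258, with 76.4 and 65.3 in F-EPC against 110.2 and 122.7 in OVX-EPC (0.71 ± 0.18, adjusted p = 0.126). B430203G13Rik had 334.2 and 321.1 in F-EPC against 403.4 and 472.7 in OVX-EPC (0.41 ± 0.11), and Cyth1, which activates ARF GTPases, had 30.9 and 42.0 in F-EPC against 60.2 and 71.1 in OVX-EPC (0.84 ± 0.23). On the lower side, Dnah5, a dynein heavy chain of motile cilia, had 101.7 and 85.9 in F-EPC against 64.8 and 49.5 in OVX-EPC over 16 regions (-0.71 ± 0.20, adjusted p = 0.158). Lgmn, a lysosomal protease, had 114.7 and 152.1 in F-EPC against 77.3 and 101.2 in OVX-EPC over 7 regions (-0.57 ± 0.17, adjusted p = 0.237), and Pbk had 83.8 and 80.3 in F-EPC against 44.3 and 57.1 in OVX-EPC (-0.69 ± 0.21). In each of these 7 genes the groups did not overlap, which the choice of the smallest p favours.

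Across broad windows the groups differed little. No window of 1 Mb had an estimate beyond 2-fold, and 98.4% had an interval wholly within 2-fold either way of no change. The windows with the lowest p on the higher side were chr13:63000001-64000000, with Ptch1 and Fancc, chr12:99000001-100000000, with Foxn3, and chr10:90000001-91000000, with Anks1b. The sums were 162.6 and 154.0 in F-EPC against 207.9 and 218.6 in OVX-EPC for the first of these (log2 fold change 0.43 ± 0.11). They did not overlap, which the choice of the lowest p favours. On the lower side were chr12:22000001-23000000, with 136.6 and 128.8 in F-EPC against 87.5 and 90.4 in OVX-EPC (-0.57 ± 0.15), chr15:28000001-29000000 with Dnah5 and Trio, and chr14:8000001-9000000. All had an adjusted p between 0.293 and 0.389 in limma.

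Promoter regions, within 3 kb of a gene start, took 23.4% and 25.3% of the covered reads in F-EPC against 25.8% and 25.4% in OVX-EPC. The difference of 1.23 points did not exceed the gap between the F-EPC replicates of 1.90 points (two-sided exact permutation test, p = 0.333, the smallest that 2 libraries against 2 allow). Promoter regions less all others had a median log2 fold change of 0.09, as large as its spread between replicates of 0.09. By class, distal intergenic regions took 54.2% and 52.9% in F-EPC against 51.7% and 52.5% in OVX-EPC, and exons took 2.48% and 2.57% in F-EPC against 2.72% and 2.73% in OVX-EPC. No class and no chromosome reached an adjusted p under 0.778 (exact permutation test, Benjamini-Hochberg over the classes or the chromosomes), and the design could not have reached significance for any. In the fifth of regions richest in CpG the median was 0.11, and there the F-EPC replicates differed by 0.25. The part of GC content in the promoter difference was not tested.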

How the data were processed

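CUT&Tag for H3K9me3 was performed by the authors on 2 libraries of each group (M-EPC, OVX-EPC, F-EPC). Per the study's methods, paired reads of 25 bases were aligned to mm10, duplicates were removed with Picard, reads with a mapping quality under 10 were discarded, and peaks were called with MACS. The methods name Bowtie2 as the aligner and the submitters' processing notes name BWA. Removing duplicates limits strong regions, and discarding poorly mapped reads lowers repeats.

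The values deposited by the authors are a normalized signal, a read count per region divided by 1 size factor per library. The division was reversed, which gave whole reads for 100% of the values (tolerance 0.001). The deposited fold changes, p-values and adjusted p-values of the authors' own comparison were not used, nor was the table of M-EPC and OVX-EPC. Both F-EPC libraries end early in the table order, replicate 1 at chr16:30556738-30557137. In later regions an absent read cannot be told apart from an absent mark, so only regions up to there were compared. Depth was 209015 to 288353 reads in covered regions for the F-EPC and OVX-EPC libraries.

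Values plus a pseudocount of 1 were log2 transformed and fitted with limma 3.58.1 (R 4.3.3) with a mean-variance trend, without covariates, on the 4 libraries, with Benjamini-Hochberg adjustment over all regions, genes (at least 2 covered regions) or 1 Mb windows (at least 3). A fold change on this scale understates weak regions. The test was tried on simulated data. Alternatives were TMM factors, scaling to covered reads, pseudocounts of 0.1 and 5, no filter, a filter at 30, edgeR 4.0.16 and DESeq2 1.42.0 on the recovered reads, each library left out, a replicate block, a GC correction with that block, and all regions. Region classes and nearest genes are the authors'. Distances before a gene or from its start run from the centre of a region to that start in GENCODE M21. Those to Slfn8 and Slfn9 are the bases between region and gene, and those between regions run from start to start. Sequences and motifs were read from GRCm38.

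Named regions are the 12 with the smallest p in each direction, the 8 strongest, the smallest p in each direction of each of 19 gene lists, the regions of Ccl3, Angpt1, Ly6a, Pecam1, Esr1 and Esr2, and the 5 genes and 3 windows with the smallest p in each direction. Further regions of a list with an unadjusted p under 0.05, and regions around Slfn9, are given by value and were chosen after their values were seen. The members and lists were chosen with earlier results of these data known.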

Additional observations from a re-analysis of the deposited data

How the results depend on the processing

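Depth limits single regions, with a median of 6 to 8 reads per library, and a change under 2-fold was mostly not detectable there. Estimates beyond 2-fold were mostly not called either. There were 330 such regions (173 higher, 157 lower), of which 1 was called. The count of called regions was 1, at Slfn9. It stayed 1 with TMM factors, scaling to covered reads, pseudocounts of 0.1 and 5, no filter, edgeR, and a GC correction with replicate block, and was 0 with a minimum of 30, with DESeq2 (46 at an unadjusted p under 0.05) and with the replicate block (adjusted p = 0.0521 in limma at Slfn9). Leaving out each library gave 0 to 15, namely 0 without F-EPC replicate 1 or 2 and 15 (6 higher, 9 lower) without OVX-EPC replicate 2. Without it 5 more of the named regions were called, at Ifngr1, Stc2, Ywhaz, Gm21738 and Sfi1. Taking absent F-EPC reads as 0 over all deposited regions gave 5076 (5063 higher, 13 lower), which follows from the missing reads. For genes the count was 1, 0 in DESeq2 (60 at an unadjusted p under 0.05) and 0 to 13 on leaving out libraries, with 0 without F-EPC replicate 1 or 2, 10 without OVX-EPC replicate 1 and 13 without OVX-EPC replicate 2. A fit without 1 library assumes that the lone sample varies like the other group. Windows stayed at 0 throughout. The cause of these changes was not tested beyond the fewer samples or reads that the alternatives hold.

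Among the 65 named regions 4 signs turned, all at weak differences: the log2 fold change at Dcn ran from -0.41 to 0.25 on leaving out each library and was above 0 without F-EPC replicate 1 or OVX-EPC replicate 2, that at Prox1 ran from -0.45 (without F-EPC replicate 1) to 1.67, and that at Pecam1 from -0.34 to 0.057 (without OVX-EPC replicate 1). The scaling, pseudocount and filter alternatives and edgeR turned none. Same-numbered libraries did not deviate together (Pearson's r = -0.03 over 7897 regions), so the numbers do not pair the samples. The replicate block changed no call among genes or windows. The promoter results moved by less than their spread between replicates in each alternative run, with a share difference of 0.284 points without F-EPC replicate 1 and of 2.18 points without F-EPC replicate 2.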

Other observations

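In the regions after chr16:30556738-30557137 that F-EPC replicate 2 still covered, up to its own last read, OVX-EPC can be set against that 1 library alone. Of 4488 such regions with a value of at least 10 in at least 2 of the 3 libraries, 45.7% were higher in OVX-EPC, with a median log2 fold change of -0.05. A region could reach this minimum through the 2 OVX-EPC libraries alone but not through F-EPC alone. The filter thus favours regions that are higher in OVX-EPC, near zinc finger genes and elsewhere. The 145 of them near zinc finger genes were higher in 99 cases (68.3%), with a median of 0.19 (0.15 with OVX-EPC replicate 1 and 0.28 with replicate 2). With F-EPC replicate 2 alone, the 154 tested covered zinc finger regions had a median of 0.24 and 114 lay above 0, compared with -0.04 over all 7897. With 1 F-EPC library there is no replicate check of these values, and no test was run.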
